A study of Mus musculus with 6 samples.

Results

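Of the 18096 genes named on the arrays, 10 of extracellular Wnt signalling, with 21 of the 45101 probe sets, were compared between conjunctival epithelium of Spdef -/- and of Spdef +/+ mice. The genes were chosen by name and found through the gene ID of each probe set. They are the ligand genes Wnt4, Wnt5a, Wnt7b and Wnt10a, the secreted antagonist genes Frzb, Sfrp1, Dkk1, Dkk3 and Wif1, and Axin2, a target of the pathway. Each genotype had 3 Affymetrix arrays, and every array held a pool of RNA from 2 C57BL/6 mice of 8 weeks, a male and a female that gave 1 eye each. The mice of both groups differed in the labels only in Spdef, whose product is a transcription factor of the ETS family found in cells that secrete mucus. The 40% of the epithelium nearest the fornix, the pouch between lid and eyeball, had been captured with a laser from sections of 6 µm.

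Wnt proteins are secreted, lipid-modified ligands that bind Frizzled receptors with the co-receptors Lrp5 and Lrp6. In the canonical branch, receptor binding stops a cytoplasmic complex built on Axin and Apc from marking beta-catenin for destruction, and beta-catenin then switches on targets such as Axin2 with TCF/LEF factors. Frzb, the Sfrp proteins and Wif1 bind Wnt ligands outside the cell, while Dkk1 blocks the co-receptors. Dkk3 belongs to the Dickkopf family by sequence, and its action on Wnt signalling is less settled.

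Signals are in linear dChip units, the authors' model-based estimate for each probe set and array. A deposited call of Present, Marginal or Absent says whether the probe set was detected. Testing was limited to probe sets with at least 3 Present calls among the 6 arrays, which 15 of the 21 had, for 9 of the 10 genes. Differences are Spdef -/- minus Spdef +/+ on the log2 scale with their SE, from limma across all 21727 tested probe sets. Adjusted p-values are Benjamini-Hochberg values over those probe sets, with a threshold of 0.05, and "passed" means below it. Signals of different probe sets, even of 1 gene, cannot be ranked against each other.

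The arrays of Spdef -/- mice called 23346 to 23425 probe sets Present, and those of Spdef +/+ mice 24646 to 24889. On probe set 1450220_a_at the signals of Spdef, the targeted gene, were 1, 3.62 and 2.94 in Spdef -/- mice, all Absent, against 801, 689 and 587 in Spdef +/+ mice (adjusted p = 0.000241, limma). The sources used here do not place the probe set against the deletion, so this reading checks the labels only if it lies inside. Of the markers of the labelled tissue, the mucosal keratin Krt13 was at 8902 to 12608 in Spdef -/- and 4533 to 5782 in Spdef +/+ mice, and the corneal keratin Krt12, at 431 to 1478 in Spdef -/- and 1006 to 5367 in Spdef +/+ mice, was also Present on all arrays.

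Among these 10 genes, the only probe sets that passed were of secreted antagonists, and in opposite directions. Frzb was no longer detected, Dkk3 was 1.68-fold and 2.12-fold lower on its 2 probe sets, and 3 of the 5 Sfrp1 probe sets were 1.84-fold to 2.03-fold higher in Spdef -/- mice. The brightest Sfrp1 probe set did not pass. None of the 5 tested ligand probe sets passed, nor did Axin2. In all, 3 of the 15 tested probe sets were higher (20%), where 13.4% of all tested probe sets were, and 3 were lower (20%), where 20.1% of all tested probe sets were. The shares are thus near those of the whole array, where 33.5% of probe sets passed in 1 direction or the other. The median absolute log2 difference was 0.33 over the 15 probe sets and 0.29 over all tested probe sets. Without overlap between the groups were 6 of the 15, the same 6 that passed, against 50.8% of all tested probe sets.

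**Figure D1:**
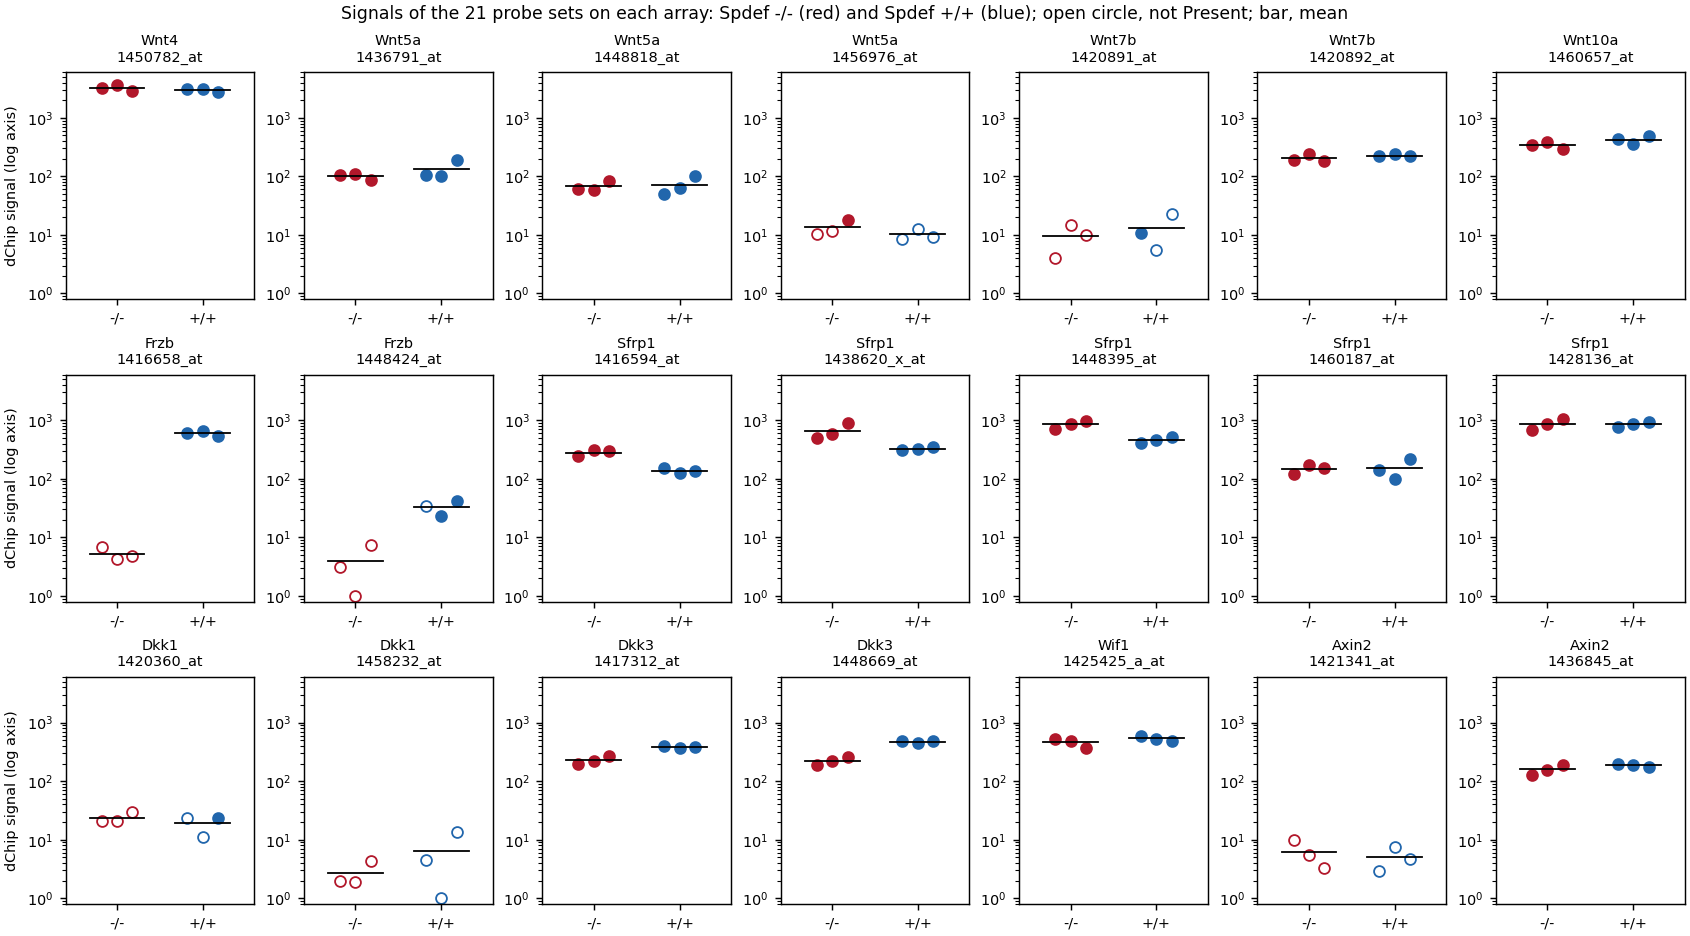
Each panel gives the dChip signals of 1 probe set on a log axis, for the 3 Spdef -/- arrays (red, left) and the 3 Spdef +/+ arrays (blue, right), filled where Present and open where not, with a bar at the mean. The panels of Frzb show the widest gap, with Absent signals of 4.30 to 6.74 in Spdef -/- and Present signals of 531 to 646 in Spdef +/+ mice on the first probe set.

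Frzb encodes a secreted Frizzled-related protein that binds Wnt ligands through a domain like that of the Frizzled receptors. Probe set 1416658_at had 6.74, 4.30 and 4.73 in Spdef -/- mice, Absent on each array, against 609, 646 and 531, Present on each array, in Spdef +/+ mice. The groups lay far apart. The SD was 59 around a mean of 595 in Spdef +/+ mice, and 1.30 around a mean of 5.26 among the undetected signals of Spdef -/- mice. The fitted log2 difference was -6.85 ± 0.18 (SE, n = 3 arrays per group; adjusted p = 1.43e-05, limma), but its size rests on signals that were not detected in Spdef -/- mice, and the probe set passed the detection filter through the Spdef +/+ arrays alone. With all signals under 16 units raised to 16, the difference was -5.21, or 37.1-fold lower, a size that depends on the floor chosen. With 32 units added to each signal it was -4.07.

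The second Frzb probe set, 1448424_at, was dim and fell short of the detection filter. It had 3.12, 1 and 7.54 in Spdef -/- mice, none Present, against 34.0, 23.4 and 41.8 in Spdef +/+ mice, of which the first was Marginal and the others Present. Its groups did not overlap either, and no fold is given because its signals in Spdef -/- mice were not detected. In the authors' deposited table of 153 probe sets, Frzb 1416658_at was the 1 probe set of these genes, with means of 5.14 in Spdef -/- and 595 in Spdef +/+ mice and a fold of -115.67, negative for lower in Spdef -/- mice. The lower bound of that fold was -41.09 in the authors' deposited table, which kept probe sets where it was past 3.

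The 3 genes whose log2 signals over the 6 arrays, centred on their mean, lay nearest to those of Frzb were Ern2, Scgb1b2 and Lman1l. Their root mean square distances from Frzb were 0.13, 0.55 and 0.57 log2 units, but all of them, like Frzb, were Absent on every Spdef -/- array, so these distances rest in part on undetected signals and give no order. Ern2, which senses unfolded protein in mucous cells, had 7, 5.56 and 5.34 in Spdef -/- mice, against 759, 879 and 633 in Spdef +/+ mice. Scgb1b2, a secretoglobin gene, averaged 40 ± 8.90 in Spdef -/- and 8716 ± 1678 in Spdef +/+ mice (SD, n = 3 each). Lman1l, related to a cargo receptor of the secretory pathway, averaged 10.5 ± 6.60 in Spdef -/- and 1023 ± 76.1 in Spdef +/+ mice.

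Goblet cell markers moved with Frzb. Leaving aside the deleted Spdef, all 5 of the list (Muc5ac, Muc5b, Tff1, Foxa3 and Agr2) were lower, where 21.8% of all genes were. Their summed signal was 1295 to 1714 in Spdef -/- and 29507 to 35044 in Spdef +/+ mice. Muc5ac, Muc5b and Foxa3 were Present on no Spdef -/- array and passed the detection filter through the Spdef +/+ arrays alone. Their part of that share is therefore no independent support. Agr2, which folds mucins, was still at 1095 to 1445, against 3592 to 4548 in Spdef +/+ mice. In pooled tissue, fewer cells of a type and less RNA per cell cannot be told apart, and the part of the goblet cell signal in the fall of Frzb was not tested.

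The Frzb gene lies on chromosome 2, from 80411970 to 80447396 on the minus strand of GRCm38.p6. Of the 10 genes, 5 had an entry in the RefSeq promoter table of that build (Frzb, Wnt4, Dkk1, Wif1 and Axin2). The 250 bases before the start of Frzb, at chr2:80447397-80447646 on the minus strand, are shown because Frzb was the member no longer detected in mice that lack this ETS factor. Capitals mark the ETS core letters GGAA and GGAT on either strand (TTCC and ATCC on the other).

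Frzb promoter: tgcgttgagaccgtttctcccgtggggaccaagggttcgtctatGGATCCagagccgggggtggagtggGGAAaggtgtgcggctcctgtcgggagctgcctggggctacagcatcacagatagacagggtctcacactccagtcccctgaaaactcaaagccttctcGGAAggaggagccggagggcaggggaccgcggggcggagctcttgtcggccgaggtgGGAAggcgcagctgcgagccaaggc

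Letters GGAT, the core that SPDEF is known to favour, stood there in 2 overlapping matches on opposite strands, and GGAA stood in 3 places. Such short cores are common: 74.1% of 32817 promoter windows of the same length held GGAT on either strand, and 93.4% held GGAA. The longer CCGGAT was in none of the 5 windows and in 4.94% of all. The window of Wnt4, whose signal did not pass the test, held GGAT 2 times as well, that of Dkk1 held it 2 times and that of Wif1 held it 1 time, while that of Axin2 held none. The TCF/LEF core CTTTGA was in the windows of Frzb and Dkk1 and in 13.8% of all. These matches are descriptions of the letters and not of binding.

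Dkk3 was the other antagonist gene that fell, on both of its probe sets. Probe set 1448669_at had 189.7, 219.5 and 258 in Spdef -/- mice, against 481, 448 and 476 in Spdef +/+ mice. Probe set 1417312_at had 196, 224 and 270.1 in Spdef -/- mice, against 399, 364 and 386 in Spdef +/+ mice. All arrays called both Present, and the groups did not overlap on either. The log2 differences were -1.09 ± 0.13 (adjusted p = 0.00178, limma) and -0.75 ± 0.13 (adjusted p = 0.00698, limma; SE, n = 3 per group). Both calls held in all the alternatives run on them, with adjusted p up to 0.0138 and 0.0337. The log2 ratio of 1448669_at to 1417312_at was -0.04, -0.03 and -0.07 on the Spdef -/- arrays and 0.27, 0.30 and 0.30 on the Spdef +/+ arrays, so the fall was unequal in size on the probe sets.

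Fibroblast markers were lower on the same arrays. Of 7 (Col1a1, Col1a2, Col3a1, Dcn, Lum, Pdgfra and Postn), 5 fell, where 21.8% of all genes did, and none rose. Their summed signal was 17707 to 21596 in Spdef -/- and 29141 to 44187 in Spdef +/+ mice. The highest sum was that of Spdef +/+ replicate 3, where Col1a1 read 4522, while the other arrays of that genotype gave 2322 and 2421 and the Spdef -/- arrays 1041 to 1216. On that array both Dkk3 probe sets, at 476 and 386, lay between their signals on the other Spdef +/+ arrays. Without it the differences of Dkk3 were -1.07 and -0.74. The part of the lower fibroblast signal in the fall of Dkk3 was not tested.

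**Figure D2:**
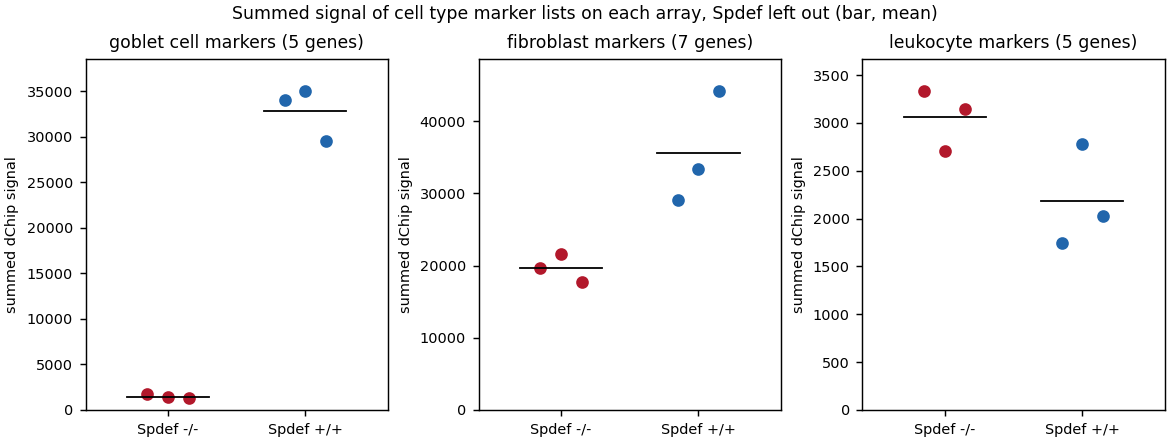
Summed dChip signals of the marker lists of goblet cells, fibroblasts and leukocytes are plotted for each Spdef -/- array (red, left) and Spdef +/+ array (blue, right), with a bar at the mean and axes that start at 0. Goblet cell sums, without Spdef, were 1295 to 1714 in Spdef -/- and 29507 to 35044 in Spdef +/+ mice, fibroblast sums were 17707 to 21596 and 29141 to 44187, and leukocyte sums, 2708 to 3334 and 1747 to 2778, overlapped.

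Sfrp1, a secreted Frizzled-related antagonist like Frzb, was higher in Spdef -/- mice on some of its probe sets. Probe set 1416594_at had 242, 305 and 296 in Spdef -/- mice, against 150, 128 and 135 in Spdef +/+ mice. Probe set 1448395_at had 719.9, 869 and 957 in Spdef -/- mice, against 405, 453 and 526 in Spdef +/+ mice. On both, every Spdef -/- array lay above every Spdef +/+ array. The log2 differences were 1.03 ± 0.12 (adjusted p = 0.00196, limma) and 0.88 ± 0.15 (adjusted p = 0.0058, limma; SE, n = 3 per group). Both held under all alternatives run on them (adjusted p up to 0.0153 and 0.0298). Some markers of conjunctival and basal epithelium were higher on the same arrays. Of 6, 3 were called higher (Krt4, Krt13 and Krt14), where 14.4% of all genes were, and none lower. Krt19 (log2 difference 0.35), Krt5 (0.21) and Trp63 (0.01) did not pass. The sums of all 6 were 63485 to 71485 in Spdef -/- and 48996 to 50385 in Spdef +/+ mice. The part of this epithelial signal in the rise of these Sfrp1 probe sets was not tested.

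The third rise was less firm. Probe set 1438620_x_at, whose suffix marks probes that may also match other transcripts, had 488, 571 and 889.9 in Spdef -/- mice, against 310, 324 and 352 in Spdef +/+ mice. Its difference was 0.94 ± 0.22 (adjusted p = 0.0182, limma; SE, n = 3 per group). Its call was lost on leaving out Spdef +/+ replicate 1 (adjusted p = 0.0627, limma), on leaving out Spdef +/+ replicate 2 (adjusted p = 0.0566, limma) and when dim probe sets were also tested (adjusted p = 0.0646, limma).

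The other two Sfrp1 probe sets gave overlapping groups. The brightest, 1428136_at, had 680.1, 870.5 and 1038 in Spdef -/- mice, against 767, 867 and 935 in Spdef +/+ mice, a difference of -0.01 with a 95% interval from -0.41 to 0.40. Probe set 1460187_at had 119, 169 and 154 in Spdef -/- mice, against 142, 101 and 218 in Spdef +/+ mice, a difference of 0.00 with an interval from -0.68 to 0.68. The log2 ratio of 1448395_at to 1428136_at within an array was 0.08, 0.00 and -0.12 in Spdef -/- mice and -0.92, -0.94 and -0.83 in Spdef +/+ mice. The ratio thus differed between the genotypes on every array, and when the brightest probe set alone stood for each gene Sfrp1 did not pass. The sources used here do not say which transcripts each of them reads, so whether the gene's total RNA rose cannot be told from these signals.

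The 3 genes nearest in pattern to Sfrp1 1416594_at over the 6 arrays were Ccdc93, Igsf3 and Cxcr5, at root mean square distances of 0.08, 0.08 and 0.09 log2 units. Igsf3, a membrane protein of the immunoglobulin superfamily, averaged 1199 ± 134 in Spdef -/- and 631 ± 38.6 in Spdef +/+ mice (SD, n = 3 each). Cxcr5, a chemokine receptor of B cells, averaged 58.4 ± 10.3 and 27.5 ± 2.13 in the same order and was Present on no Spdef +/+ array. Sfrp1 1416594_at itself was number 731 from the highest difference among the tested probe sets.

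The remaining antagonists did not pass. Wif1, which binds Wnt ligands through its own WIF domain, had 529, 489 and 363 in Spdef -/- mice, against 589.7, 528 and 489 in Spdef +/+ mice. The groups overlapped, and the difference was -0.23 (95% interval from -0.62 to 0.15, adjusted p = 0.3, limma). Dkk1 was at the edge of detection and was not tested. Probe set 1420360_at had 21, 20.7 and 29.5 in Spdef -/- mice, none Present, against 23.6, 11.3 and 23.2 in Spdef +/+ mice, of which the last was Present. The other Dkk1 probe set was Absent on all arrays, at 1.86 to 4.27 in Spdef -/- and 1.01 to 13.7 in Spdef +/+ mice.

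Wnt4, a ligand gene known from epithelial development in kidney and gonad, had 3193, 3591 and 2923 in Spdef -/- mice, against 3149, 3050 and 2804 in Spdef +/+ mice. The groups overlapped, and the difference of 0.11 had a 95% interval from -0.15 to 0.36 (adjusted p = 0.487, limma). A change of over 0.36 log2 units in either direction therefore lay outside the interval.

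Wnt10a and Wnt7b, ligands of the canonical branch in skin and other epithelia, leaned lower without passing. Wnt10a had 345, 381 and 290.4 in Spdef -/- mice, against 432, 362 and 484 in Spdef +/+ mice, a difference of -0.33 (95% interval from -0.69 to 0.03, adjusted p = 0.135, limma). Only the highest Spdef -/- array reached into the range of the Spdef +/+ arrays. Wnt7b had 189.6, 237 and 184 on probe set 1420892_at in Spdef -/- mice, against 219, 239.7 and 222 in Spdef +/+ mice, a difference of -0.17 (interval from -0.46 to 0.12, adjusted p = 0.328, limma). Its second probe set, 1420891_at, was Present on 1 of the 6 arrays, at 3.98 to 14.9 in Spdef -/- and 5.49 to 22.4 in Spdef +/+ mice.

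Wnt5a, a ligand of the beta-catenin-independent branch that mesenchymal cells often make, was spread most among the Spdef +/+ arrays. Probe set 1436791_at had 104, 112 and 87.8 in Spdef -/- mice, against 107, 103 and 193 in Spdef +/+ mice (difference -0.35, 95% interval from -0.95 to 0.25, adjusted p = 0.322, limma). Probe set 1448818_at had 59.9, 57.8 and 84.0 in Spdef -/- mice, against 49.2, 64.5 and 102 in Spdef +/+ mice (difference -0.05, interval from -0.73 to 0.62, adjusted p = 0.901, limma). On both, the highest signal was that of Spdef +/+ replicate 3, the array with the highest fibroblast sum. Without that array the differences were -0.06 and 0.23. The part of the fibroblast signal in these values was not tested. The third probe set, 1456976_at, was Present on 1 Spdef -/- array, at 10.3 to 18.3 in Spdef -/- and 8.53 to 12.7 in Spdef +/+ mice.

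Axin2 encodes a scaffold of the beta-catenin destruction complex and is a feedback target of canonical signalling. Probe set 1436845_at had 129, 158 and 192 in Spdef -/- mice, against 199, 186 and 178 in Spdef +/+ mice. The groups overlapped through Spdef -/- replicate 3, and the difference was -0.25 ± 0.15 (SE, n = 3 per group; 95% interval from -0.62 to 0.12, adjusted p = 0.251, limma). Leaving out 1 array at a time gave -0.39 without Spdef -/- replicate 3 (adjusted p = 0.0539, limma) and -0.10 without Spdef -/- replicate 1 (adjusted p = 0.582, limma), with the others between. The other Axin2 probe set, 1421341_at, was Absent on all arrays, with signals of 3.31 to 9.74 in Spdef -/- and 2.95 to 7.51 in Spdef +/+ mice.

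**Figure D3:**
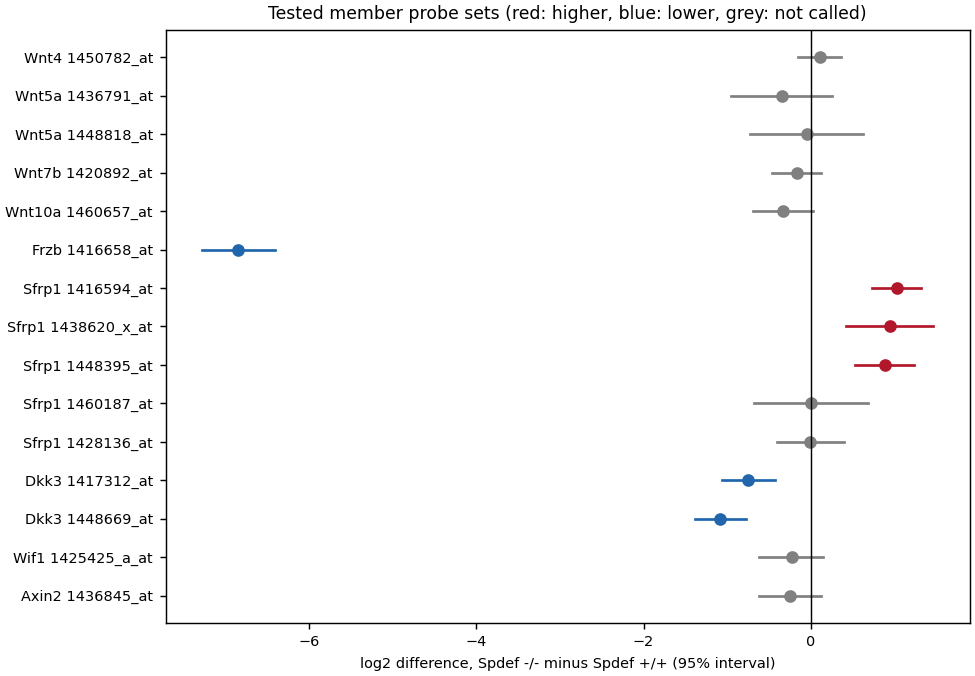
Log2 differences, Spdef -/- minus Spdef +/+, are plotted with 95% intervals for the 15 tested probe sets, red where higher, blue where lower and grey where the test was not passed. Frzb stands at -6.85, the Dkk3 probe sets at -1.09 and -0.75, and the 5 Sfrp1 probe sets fall into 3 near 0.88 to 1.03 and 2 at 0.

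In the rest of the pathway more genes fell than rose, which was also so over all genes. Of 108 further genes listed by role, 106 had a probe set and 78 a tested one, and the brightest tested probe set stood for its gene. Lower in Spdef -/- mice were 21 (26.9%), where 21.8% of all 11899 genes were, and 5 were higher (6.41%), where 14.4% of all genes were, or 36.2% in either direction. Without Spdef +/+ replicate 1 or replicate 2 the number higher was 3. Leaving out any 1 array gave 3 to 5 higher and 15 to 20 lower. The other alternatives gave 3 to 7 higher and 14 to 23 lower. The median log2 difference of the 78 genes was -0.16, and that of all genes was -0.06.

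Of 15 other ligand genes, 5 were tested, and 3 fell (60%) and 1 rose (20%), where 21.8% and 14.4% of all genes did. Of those that fell, Wnt2 passed the detection filter through the Spdef +/+ arrays alone. Wnt5b, a close relative of Wnt5a, had 247, 218 and 236 in Spdef -/- mice, against 1127, 1062 and 1137 in Spdef +/+ mice, a log2 difference of -2.25 ± 0.09 (adjusted p = 8.04e-05, limma; SE, n = 3 per group). All 4 tested Wnt5b probe sets were lower, and the one given here was Present on all arrays. Another, at 29.4, 37.8 and 20.8 in Spdef -/- mice, was Absent there and passed the detection filter through the Spdef +/+ arrays alone. The remaining ones were Present on 2 Spdef -/- arrays each. Wnt11, also a ligand of the beta-catenin-independent branch, had 61.5, 71.9 and 75.5 in Spdef -/- mice, against 276, 250.1 and 256 in Spdef +/+ mice (3.75-fold lower, adjusted p = 0.000241, limma). Its Spdef -/- signals were called Present, Marginal and Absent in that order. The size of its fold thus rests in part on signals not called Present. The authors' deposited table held Wnt5b and Wnt11, with folds of -4.75 and -3.74.

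Wnt2 had 41.4, 51.4 and 33.3 in Spdef -/- mice, none Present, against 67.0, 83.1 and 174 in Spdef +/+ mice (difference -1.26, adjusted p = 0.0361, limma). Its call was lost when any 1 Spdef -/- array, or Spdef +/+ replicate 2, was left out (adjusted p from 0.0506 to 0.0892, limma). Wnt2 also lost it when dim probe sets were tested (adjusted p = 0.105, limma), and in all in 6 of 15 alternatives. Its highest signal was again on Spdef +/+ replicate 3. The ligand gene that rose, named after its values were seen, was Wnt9a, at 281, 325 and 359 in Spdef -/- mice, against 131, 131 and 168 in Spdef +/+ mice (difference 1.17, adjusted p = 0.00205, limma).

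The 2 genes listed for Wnt release were lower on their brightest tested probe sets, where 21.8% of all genes were lower. Porcn, which adds the lipid to Wnt proteins, averaged 246 ± 33.6 in Spdef -/- and 358 ± 17.7 in Spdef +/+ mice (adjusted p = 0.0138, limma; SD, n = 3 each). Wls, which carries Wnt proteins to the cell surface, averaged 1285 ± 55.1 and 1714 ± 169.8 (adjusted p = 0.0243, limma). The other tested Porcn probe set had a difference of 0.25 and did not pass, and the Porcn call was lost when dim probe sets were also tested (adjusted p = 0.0534, limma). All 3 tested Wls probe sets were lower. On the brightest of them the call was lost in 6 of 15 alternatives. Among these were array medians set equal (adjusted p = 0.0516, limma) and dim probe sets also tested (adjusted p = 0.0795, limma). It was also lost without Spdef -/- replicate 1, Spdef +/+ replicate 1 or Spdef +/+ replicate 3 (adjusted p from 0.0696 to 0.0948, limma).

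Of 15 further secreted antagonists and modulators, 6 were tested, and 1 rose (16.7%) and 2 fell (33.3%), where 14.4% and 21.8% of all genes did. Igfbp4, which binds insulin-like growth factors and can also bind Wnt receptors, averaged 3284 ± 377 in Spdef -/- and 2026 ± 291 in Spdef +/+ mice, and all 5 of its tested probe sets were higher. Sostdc1, an inhibitor of Wnt and BMP signalling, averaged 154 ± 8.97 and 239 ± 38.7 in the same order. Its call was lost when Spdef +/+ replicate 1 was left out (adjusted p = 0.0613, limma) and when dim probe sets were also tested (adjusted p = 0.0579, limma). Sost, whose product sclerostin binds the co-receptors, averaged 615 ± 47.7 and 870.1 ± 155. It passed with adjusted p = 0.0473 (limma) and lost its call without any 1 array other than Spdef +/+ replicate 3 (adjusted p from 0.0685 to 0.142). Sost also lost it when dim probe sets were tested (adjusted p = 0.126, limma), and in all in 9 of 15 alternatives.

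Of 18 tested receptor and co-receptor genes 5 fell (27.8%), where 21.8% of all genes did. None rose in limma, where 14.4% of all genes did, and 13 did not pass. Fzd4, a Frizzled that also binds Norrin, had 75.8, 64.5 and 51.9 in Spdef -/- mice, against 182, 170.2 and 126 in Spdef +/+ mice (2.49-fold lower, adjusted p = 0.00349, limma). Rnf43, a ubiquitin ligase that removes Frizzled receptors and is itself a Wnt target, averaged 235 ± 20.4 in Spdef -/- and 401 ± 8.29 in Spdef +/+ mice (SD, n = 3 each). Fzd3 was 1.62-fold lower on 1 of its 2 tested probe sets, and Lgr4, a receptor of R-spondins, and Fzd7, both named after their values were seen, had differences of -0.58 and -0.45.

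Inside the cell, 2 of 15 tested genes of the beta-catenin cascade fell (13.3%) and 1 rose (6.67%), and Ctnnb1, which encodes beta-catenin and was chosen after its values were seen, had 9890, 9199 and 9330 in Spdef -/- mice, against 9334, 9552 and 8556 in Spdef +/+ mice. Btrc, whose product recognises marked beta-catenin, was 2.65-fold lower on its brightest tested probe set and lower on 2 of its 5 tested probe sets. Dvl2, which relays the signal from Frizzled, was 1.27-fold lower, and Csnk1a1, a kinase of the destruction complex, 1.31-fold higher on 1 of its 4 tested probe sets, while the others did not pass. Over all genes 21.8% fell and 14.4% rose, and of 11 nuclear factors 3 fell (27.3%) and none rose in limma. Those were the co-repressor genes Tle1 (1.74-fold) and Tle2 (1.71-fold) and the co-activator gene Bcl9 (1.33-fold).

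Several of these small differences kept their direction in every alternative but lost their call when an array was left out. Dvl2 lost its call without any 1 of the 6 arrays (adjusted p from 0.0606 to 0.0914, limma), and Bcl9 without any 1 array other than Spdef -/- replicate 1 (adjusted p from 0.0725 to 0.122, limma). Csnk1a1 lost it without Spdef -/- replicate 1 or any 1 Spdef +/+ replicate (adjusted p from 0.0567 to 0.0827, limma). Tle2 lost it without Spdef -/- replicates 1 or 2 or Spdef +/+ replicates 1 or 2 (adjusted p from 0.0505 to 0.0558, limma). When dim probe sets were also tested, Dvl2, Bcl9, Csnk1a1 and Tle2 lost it too (adjusted p from 0.0629 to 0.118, limma). In all, Dvl2 lost its call in 11 of 15 alternatives, with differences from -0.38 to -0.26. Bcl9 lost its call in 9 of the 15, and Csnk1a1 and Tle2 in 6 each.

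Of 16 tested targets of the pathway, 3 fell (18.8%), 1 rose (6.25%) and 12 did not pass, near the shares over all genes of 21.8% and 14.4%. Cd44, a hyaluronan receptor, had 3594, 3568 and 4145 in Spdef -/- mice, against 1163, 1506 and 1361 in Spdef +/+ mice (2.81-fold higher, adjusted p = 0.00067, limma). Tnfrsf19, a TNF receptor family member, had 80.1, 87.6 and 60.6 in Spdef -/- mice, against 442, 421 and 318 in Spdef +/+ mice (5.19-fold lower, adjusted p = 0.000547, limma). Beside Rnf43, the third that fell was Ascl2, named after its values were seen (difference -0.43), which lost its call without Spdef -/- replicates 1 or 2 or Spdef +/+ replicates 1 or 2 (adjusted p from 0.0761 to 0.106, limma). Ascl2 also lost it when dim probe sets were tested (adjusted p = 0.0927, limma), and in all in 6 of 15 alternatives. Cd44 is also a protein of leukocytes, whose marker Ptprc had 1175, 883 and 1212 in Spdef -/- mice, against 404, 479 and 333 in Spdef +/+ mice. Of 5 leukocyte markers 3 were tested, and Ptprc alone passed. Lyz2 (log2 difference -0.07) and Csf1r (0.27) did not, and Cd3e and Cd79a were Present on no array. The part of leukocyte signal in the rise of Cd44 was not tested.

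Of 11 tested genes of the planar polarity branch, which orients cells within the epithelial sheet, 2 fell (18.2%) and 1 rose (9.09%). Over all genes 21.8% fell and 14.4% rose. Prickle1 averaged 171 ± 25.4 in Spdef -/- and 341 ± 56.6 in Spdef +/+ mice, and Prickle2 averaged 55.0 ± 3.25 and 108 ± 14.8 (SD, n = 3 each). Of the 5 tested Prickle1 probe sets 2 were lower and the others did not pass. Celsr2, an adhesion receptor of the branch, was 1.55-fold higher and lost its call without Spdef -/- replicate 2, Spdef +/+ replicate 1 or Spdef +/+ replicate 2 (adjusted p from 0.0502 to 0.0725, limma).

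**Figure D4:**
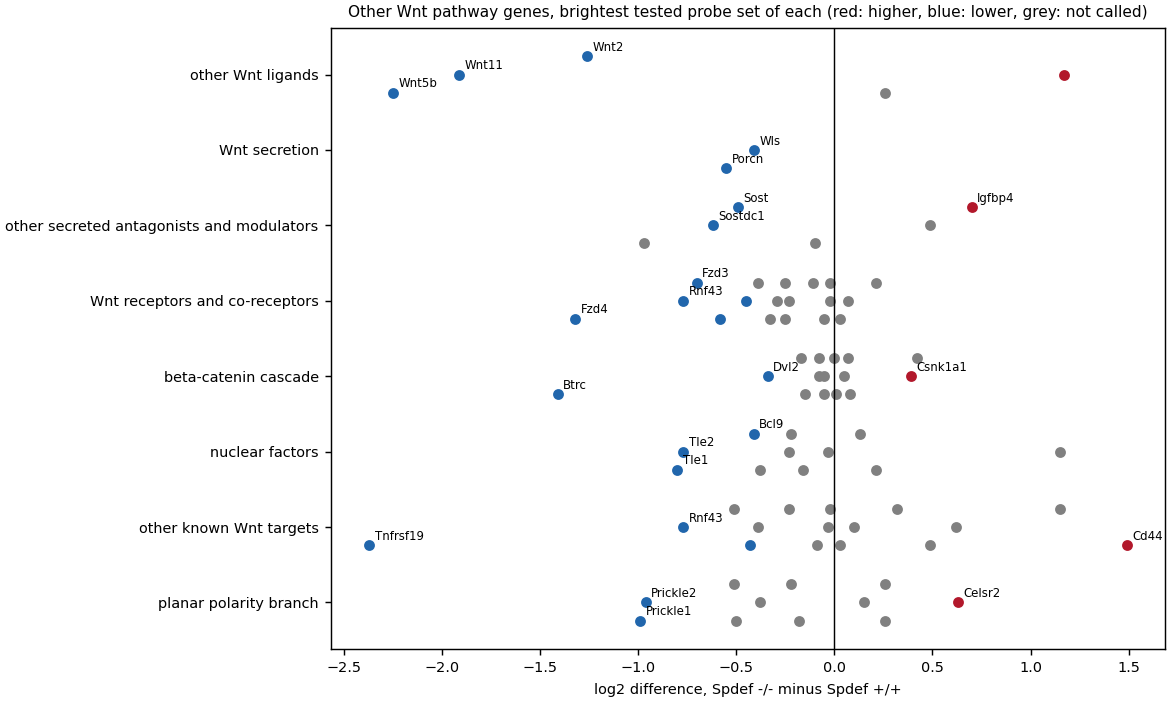
Log2 differences, Spdef -/- minus Spdef +/+, of the brightest tested probe set of each further Wnt pathway gene are plotted by role, red where higher, blue where lower and grey where the test was not passed, with the genes named by rule labelled. Tnfrsf19 at -2.37, Wnt5b at -2.25 and Wnt11 at -1.91 lie farthest to the left, and Cd44 at 1.49 farthest to the right. Rnf43, Lef1, Tcf7, Lgr5, Znrf3 and Notum stand in 2 roles each and are plotted in both.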

How the data were processed

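RNA of laser-captured conjunctival epithelium was labelled with biotin and measured on Affymetrix arrays, 3 from Spdef -/- and 3 from Spdef +/+ mice. The deposited intensity values are dChip signals on a linear scale, made by the authors and comparable between arrays; no source used here names the normalization or background method. Detection calls, the deposited values of another kind, name no algorithm. The comparison deposited by the authors lists means, folds and differences (read as score values) with an unadjusted p-value. Per the file headers it keeps folds whose lower bound is past 3, differences past 20 and p up to 0.01. A further deposited table repeated the signals.

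Probe sets were named through gene IDs or accessions of GRCm38.p6; 64 controls, 585 that matched several genes and 7543 without a symbol were left out. Signals were raised to at least 1 before taking log2. Probe sets Present on at least 3 of 6 arrays (21727, of 11899 genes) were fitted by genotype with lmFit and eBayes of limma 3.58.1 (R 4.3.3; two-sided). Precision is limited by the number of arrays (median residual SD of log2 signal, 0.158). The labels call the samples biological replicates, and p-values measure the spread between these pools.

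For Frzb, Present on no Spdef -/- array, the fold is given with signals raised to a floor of 16. That floor is a chosen setting and no measured limit of detection. The lowest Present signals of the arrays (1.57 to 3.75) lay under the Spdef -/- signals of Frzb 1416658_at and gave no bound for that probe set. Named were Spdef, the 10 genes, up to 3 genes that passed per pathway list with the largest differences, and the 3 genes nearest in pattern to the lowest and the highest member. Markers of conjunctival, corneal, goblet, fibroblast, endothelial, muscle, melanocyte, leukocyte and epidermal cells were summed per array. Endothelial markers summed to 699 to 742 in Spdef -/- and 629 to 845 in Spdef +/+ mice, muscle to 572 to 724 and 591 to 2914, melanocyte to 147 to 255 and 148 to 221, epidermal to 621 to 708 and 634 to 677, and corneal to 15298 to 17476 and 17522 to 21814. The members and lists were chosen with earlier results of these data known.

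Alternatives were no filter, a mean log2 signal of at least 6, quantile normalization, arrays centred on their medians, a floor of 16, a pseudocount of 32, eBayes with trend and robust (statmod 1.5.0), 1 probe set per gene, the replicate number as a block, and leaving out each array.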

Additional observations from a re-analysis of the deposited data

How the results depend on the processing

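Of 218 values of the tested Wnt probe sets under 15 alternatives, 203 kept their direction and side of the threshold, 3 fell short of it (Sfrp1 1438620_x_at, given above) and 12 changed sign, none of which had passed. Those were Sfrp1 1460187_at under quantile normalization (0.08), with arrays centred on their medians (0.01), without Spdef -/- replicate 1 (0.14) and without Spdef +/+ replicate 3 (0.29). Likewise Sfrp1 1428136_at was 0.03 under quantile normalization, 0.01 with centred arrays, 0.16 without Spdef -/- replicate 1, 0.01 without Spdef +/+ replicate 2 and 0.06 without Spdef +/+ replicate 3. Wnt5a 1448818_at was 0.02, 0.05 and 0.23 without Spdef -/- replicate 1, Spdef -/- replicate 2 and Spdef +/+ replicate 3. Leaving out 1 array gave from -0.27 to 0.29, from -0.15 to 0.16 and from -0.29 to 0.23 for these 3 probe sets. The cause was not tested.

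With 1 probe set per gene, 0 Wnt members were higher by limma, since the probe set kept for Sfrp1 was 1428136_at, and 1878 genes were higher and 2850 lower in all. Without the filter, 3 other pathway genes were higher and 2654 probe sets lower, and Frzb 1448424_at was lower too (adjusted p = 0.0422). A mean log2 signal of at least 6 left out Frzb. Leaving out an array gave 2 to 3 Wnt probe sets higher and 3 lower, 3 to 5 other pathway genes higher and 15 to 20 lower, and 1903 to 2980 probe sets higher and 2661 to 4369 lower.

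Arrays with the same replicate number did not deviate together (correlations 0.0108, -0.0898 and -0.103). With the replicate block, 3 Wnt probe sets were higher and 3 lower, 6 other pathway genes were higher and 15 lower, and 2165 probe sets were higher and 3189 lower in all. Signals near background limit Dkk1 and the second probe sets of Axin2, Wnt7b and Frzb.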

Other observations

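A few further Wnt pathway genes, chosen after their values were seen, had signals that did not pass limma and are given as values. Lef1, a transcription factor that acts with beta-catenin, had 24.0, 33.1 and 87.2 in Spdef -/- mice, Present on each array, against 23.6, 14.7 and 18.3 in Spdef +/+ mice, Present on none (adjusted p = 0.1, limma). Myc, a proto-oncogene that canonical signalling can induce, had 373, 388 and 334 in Spdef -/- mice, against 156, 271 and 315 in Spdef +/+ mice (adjusted p = 0.106, limma). Lgr5, a receptor of R-spondins and a stem cell marker in intestine, had 77.6, 59.1 and 71.1 in Spdef -/- mice, against 101, 95 and 76.8 in Spdef +/+ mice (adjusted p = 0.0854, limma). Dkk2, a relative of Dkk1, had 39.3, 39.8 and 23.3 in Spdef -/- mice, against 48.9, 42.9 and 132 in Spdef +/+ mice, the last being the array with the highest fibroblast sum.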
